A study of Drosophila melanogaster with 18 samples.

Results

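The genes described here are the translation initiation factors and aminoacyl-tRNA synthetases of Drosophila melanogaster, as read by an Affymetrix array in egg chambers with altered EGFR or BMP signalling. Members were the probe sets annotated to 1 gene whose symbol begins with eIF, or is an amino acid abbreviation followed by RS, with -m for the mitochondrial enzyme. The rule used no measured value and found 76 probe sets for 66 genes, among 13966 probe sets fitted and 10843 genes named on the array. Of these, 43 probe sets read 37 initiation factor genes, 18 read 15 cytoplasmic synthetase genes and 15 read 14 mitochondrial synthetase genes. A probe set is a group of short oligonucleotides meant to read 1 transcript, and 9 of the genes had more than 1. The genes eIF1A, eIF2alpha, eIF2gamma, eIF4B, eIF4EHP, eIF4H1 and eIF5A had no such probe set here.

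Translation initiation brings the small ribosomal subunit and the initiator tRNA to the start codon of an mRNA. eIF2 carries the initiator tRNA and is recharged with GTP by the exchange factor eIF2B. The many-subunit scaffold eIF3 holds the small subunit, while eIF4E, eIF4G and the helicase eIF4A bind the mRNA cap and unwind the leader, and eIF5 and eIF5B act at start selection and subunit joining. Each aminoacyl-tRNA synthetase loads 1 amino acid onto its tRNA, and mitochondria have their own set of nuclear-encoded enzymes. In the Drosophila ovary the germline nurse cells make ribosomes and translation machinery for the egg, and the follicle cells around them secrete eggshell proteins.

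Total RNA came from hand-dissected ovarian egg chambers of stages 9 to 10, from females aged 6 to 8 days kept with yeast at 23 °C for 24 h. All 4 perturbations carried the follicle cell driver CY2-GAL4. EGFR gain of function had UAS-lambda-Top, a constitutively active receptor, and EGFR loss of function had UAS-dnEGFR, a dominant-negative receptor. BMP gain of function had UAS-tkv*, an activated type I BMP receptor, and BMP loss of function had UAS-Dad, an inhibitory Smad. The wild type was OreR. Driver-only flies were not analysed here, and in comparisons with OreR the strain, the driver and the pathway cannot be told apart. Each of 6 groups held 3 arrays, run in 2 hybridization rounds. BMP loss and wild type B formed round 2, and all remaining groups, with wild type A, formed round 1. Perturbations were therefore compared with the wild type run beside them, and the 3 perturbations of round 1 share wild type A. Each replicate was a pool of 100 egg chambers, and per the labels the chambers of a genotype were divided into the 3 replicates, so the p-values measure the spread between these pools, which may be partly technical. Nurse cells, oocyte and follicle cells were pooled, so fewer cells of a type and less RNA per cell cannot be told apart.

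The arrays of a group had Spearman correlations of 0.958 to 0.970 with each other, and no pair of arrays held identical values. The number of arrays limits the precision. EGFR loss replicate 3 stood apart in a measure of RNA quality, with a difference between the 3' and 5' control probe sets of actin of 2.89 on the log2 scale, against 0.85 to 1.63 in the other 17 arrays. For GAPDH the array was also the highest but set apart less, at 2.68 against 1.38 to 2.45. The omission of EGFR loss replicate 3 is given below for the members whose call it changes. Follicle cell markers such as Yp1 and psd and germline markers such as osk and piwi gave high signals in every group, while slbo, a gene of migrating border cells, lay at group means of 3.25 to 3.62, below the median probe set. The lists had mean log2 values of 10.21 to 11.22 over 7 follicle cell genes and 8.07 to 8.75 over 9 germline genes. Some of these markers were called. Of the 7 follicle cell genes 1 was lower in EGFR gain, 3 lower in EGFR loss, 1 higher in BMP gain and 1 lower in BMP loss. The call in EGFR gain was psd, and those in the other perturbations were yolk protein genes (Yp1, Yp2 or Yp3). Vm26Aa, Vm34Ca and slbo had no call. Of all probe sets 2.81%, 3.17%, 2.39% and 2.29% were called in EGFR gain, EGFR loss, BMP gain and BMP loss. Of the 9 germline genes 2 were lower in EGFR gain, 1 higher and 2 lower in EGFR loss, and 1 higher and 1 lower in BMP gain, where bam, a differentiation factor of early germ cells, was higher by 2.05 (SE 0.13, limma adjusted p = 1.7e-06). Haemocyte markers had no call. Their mean log2 values, over 6 probe sets of 5 genes, were 2.80 to 3.26 in wild type A and 3.47 to 3.81 in the other groups of round 1. In each of these groups 5 of the 6 probe sets changed by more than 0, by unequal amounts. The dimmer set of vkg had a mean of 3.04 in wild type A, 4.86 in EGFR gain, 4.06 in EGFR loss and 4.95 in BMP gain. The brighter set of vkg was lower in all 3, at 7.85, 7.78 and 7.81 against 7.98. The part of these cell types in the member values was not tested.

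Few members differed between any perturbation and its wild type, and the 12 calls fell on 6 probe sets, 3 of synthetases (ValRS, LeuRS and CysRS-m) and 3 of initiation factors (eIF4G2, eIF5B and eIF6). At a limma adjusted p under 0.05 over all probe sets, 1 of 76 members was higher and 1 was lower in EGFR gain, where 2.81% of all probe sets were called. In EGFR loss 1 was higher and 1 lower, with 3.17% of all probe sets called. In BMP gain 4 were lower and none higher, with 2.39% called. In BMP loss 1 was higher and 3 were lower, with 2.29% called. These counts are near the background of the array in the EGFR comparisons, and the BMP counts of 4 lie above it by few probe sets. By direction, the background in BMP gain was 1.22% of all probe sets lower, and in BMP loss it was 1.12% higher and 1.17% lower. In EGFR gain the background was 1.52% higher and 1.29% lower, and in EGFR loss it was 1.69% higher and 1.48% lower.

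**Figure D1:**
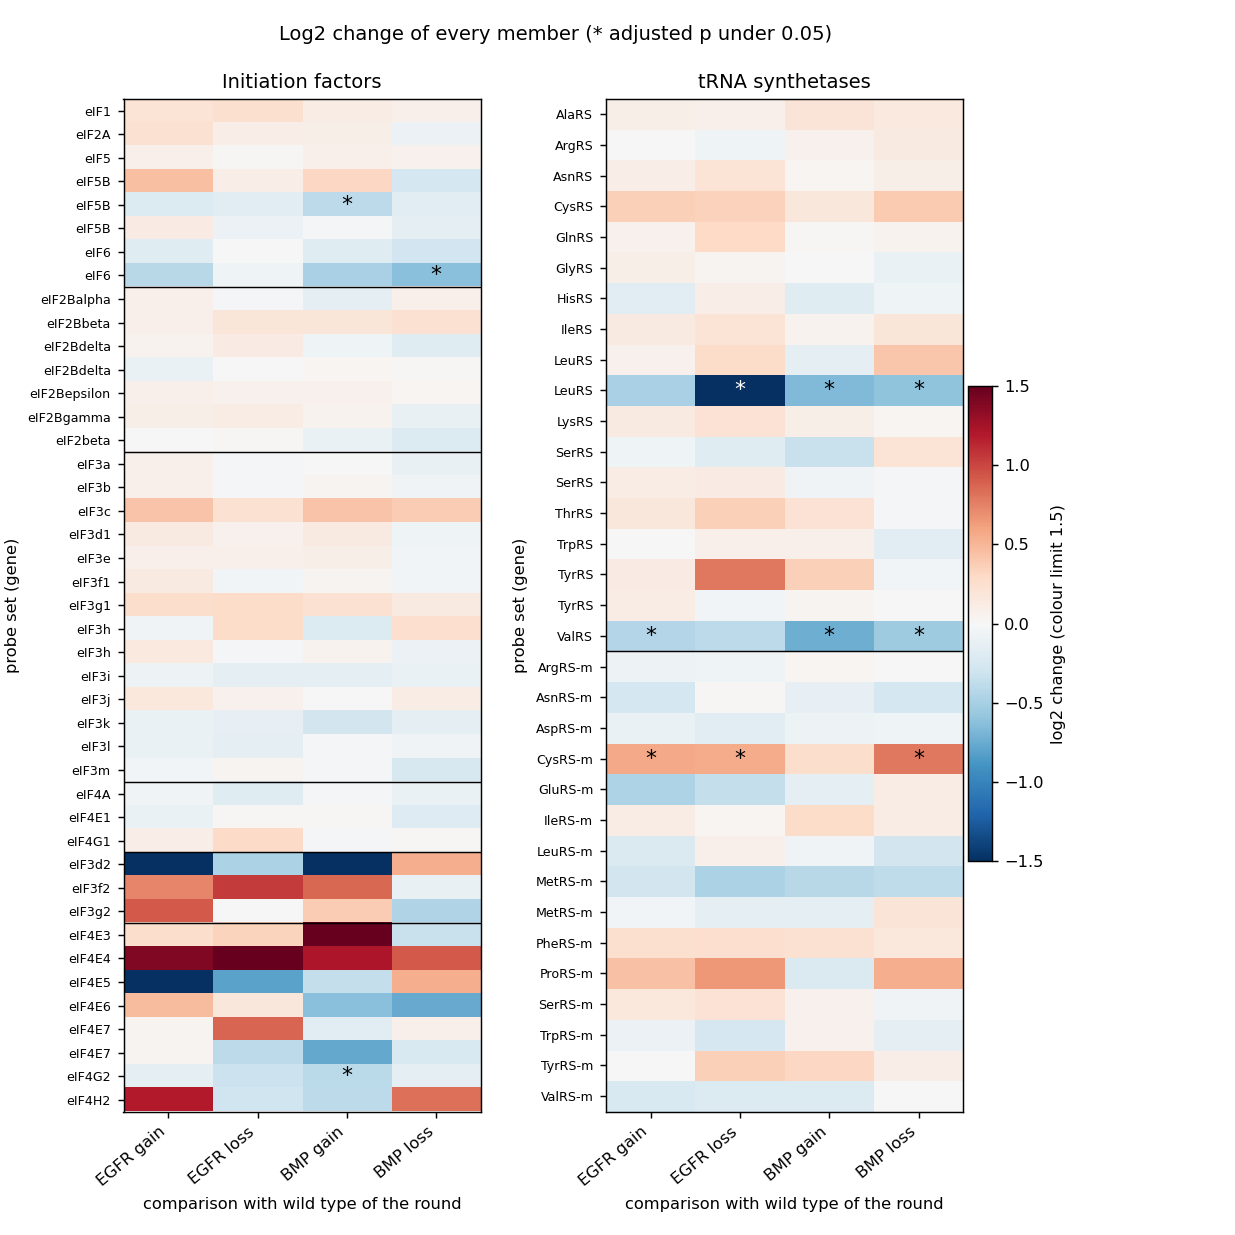
Heat maps of the log2 change of all 76 members in each perturbation relative to its parallel wild type, initiation factors on the left and synthetases on the right, 1 row per probe set. Lines divide the groups by role, colours stop at 1.5 in either direction, and an asterisk marks an adjusted p under 0.05; most of the paler rows carry none, and the strongest colours without an asterisk lie in the dim eIF3 and eIF4E paralogs.

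The median change of the 76 members was 0.07 in EGFR gain, 0.04 in EGFR loss, 0.01 in BMP gain and -0.04 in BMP loss on the log2 scale. The median over all probe sets was within 0.01 of zero in each. At an unadjusted p under 0.05, 14, 20, 16 and 12 members differed in these comparisons in that order, or 18.4%, 26.3%, 21.1% and 15.8%, against 13.7%, 16.7%, 11.3% and 13.4% of all probe sets. Brighter probe sets are measured more tightly, and among all probe sets in the brighter part of the array, split at the median mean, the shares were 19.5%, 23.6%, 15.3% and 18.1%, beside 19.4%, 30.6%, 22.6% and 19.4% of the 62 members there. The 95% interval of the change lay within 1.5-fold in both directions for 51 members in EGFR gain, 51 in EGFR loss, 49 in BMP gain and 49 in BMP loss. For those members these arrays put a bound on the change, and for the others the interval was too wide to do so.

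How tightly a member was measured followed its signal. The median of all probe-set means was 4.24. The 62 members not below it had a median pooled SD within groups of 0.117 log2 units, beside 0.136 for all probe sets there. The 14 members below it had a median of 0.759, beside 0.723 for all. Those 14 were the probe sets of eIF3d2, eIF3f2, eIF3g2, eIF4E3, eIF4E4, eIF4E5, eIF4E6, eIF4H2 and GluRS-m, both of eIF4E7, and 1 of the 2 probe sets of eIF2Bdelta, SerRS and TyrRS. None of these 14 was called in any of the 8 comparisons made with limma, and 2, 1, 2 and 0 of them had an unadjusted p under 0.05 in EGFR gain, EGFR loss, BMP gain and BMP loss. This says little, since only 1 of the 14 had an interval within 1.5-fold in EGFR gain and none had in the other comparisons with wild type. Signals of different probe sets are not levels that can be set against each other.

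**Figure D2:**
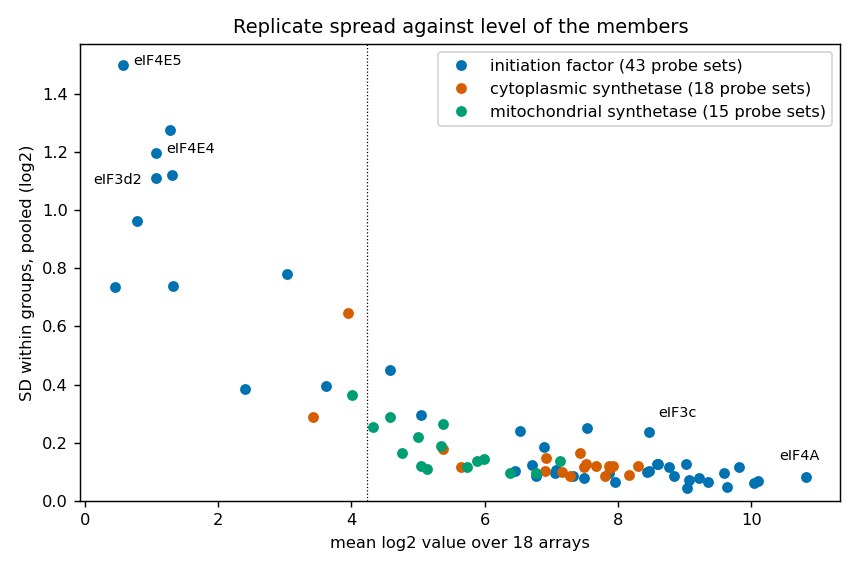
Standard deviation within groups, pooled over the 6 groups, against the mean log2 value over 18 arrays, 1 point per member probe set, coloured by class. The dotted line is the median of all probe-set means (4.24); the 14 members to its left have a median SD of 0.759 and the 62 to its right one of 0.117, and eIF3c lies above its neighbours.

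Among initiation factors, none of 43 probe sets was called by limma in EGFR gain or EGFR loss. At an unadjusted p under 0.05 were 9 and 7, or 20.9% and 16.3%. The shares were 13.7% and 16.7% of all probe sets, and 19.5% and 23.6% in the brighter part of the array. In BMP gain 2 were lower, and in BMP loss 1 was lower, beside 1.22% and 1.17% of all probe sets called lower. The array medians over the 43 probe sets were 7.64 to 7.80 in wild type A, 7.86 to 7.90 in EGFR gain, 7.73 to 7.83 in EGFR loss and 7.56 to 7.81 in BMP gain. In round 2 they were 6.80 to 6.89 in wild type B and 6.71 to 6.79 in BMP loss. The medians of EGFR gain lay above those of wild type A and those of BMP loss lay below those of wild type B, in each case without overlap, and the other groups overlapped with wild type A. The array medians over all probe sets were 4.44 to 4.51 in round 1 and 4.02 to 4.04 in round 2, so values are compared only within a round.

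The cap-binding complex changed little. eIF4A, eIF1 and eIF4E1 had the highest mean signals of the members, and eIF4E3, eIF4E5 and eIF4H2 the lowest. eIF4A, the helicase that unwinds the mRNA leader, read 11.09, 11.00 and 11.07 in wild type A, 10.99, 11.07 and 10.94 in EGFR gain, 10.85, 10.95 and 10.83 in EGFR loss and 10.92, 10.99 and 11.21 in BMP gain. In round 2 it read 10.58, 10.45 and 10.52 in wild type B and 10.42, 10.44 and 10.40 in BMP loss. EGFR loss and BMP loss lay below their wild types in every array and the other groups overlapped with theirs, and the largest change of eIF4A was -0.18 ± 0.08 (SE, adjusted p = 0.29) in EGFR loss. eIF4E1, the main cap-binding protein, changed by -0.10, 0.01, 0.01 and -0.20 in EGFR gain, EGFR loss, BMP gain and BMP loss, with an adjusted p of 0.21 for the last. eIF4G1, the scaffold that joins eIF4E to eIF4A, changed by 0.10, 0.29, -0.01 and 0.02, and its adjusted p in EGFR loss was 0.18. In EGFR loss its 3 arrays read 9.08, 9.10 and 9.08 and in wild type A 9.05, 8.68 and 8.66, so a single wild type array came close to them. Without wild type A replicate 1 the change of eIF4G1 was called (0.42, adjusted p = 0.040). All 3 intervals of this complex lay within 1.5-fold in each comparison with wild type.

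eIF2 and eIF2B were also steady. The 7 probe sets of eIF2beta, which is a subunit of the GTP-binding factor eIF2, and of the 5 subunits of eIF2B changed by -0.10 to 0.09 in EGFR gain, -0.03 to 0.18 in EGFR loss, -0.14 to 0.18 in BMP gain and -0.20 to 0.22 in BMP loss. None was called by limma, and 0, 1, 1 and 2 had an unadjusted p under 0.05. eIF2beta read 9.09, 9.13 and 9.25 in wild type B and 8.92, 8.94 and 9.00 in BMP loss. These groups did not overlap, yet the change of -0.20 ± 0.09 had an adjusted p of 0.35. eIF2Bbeta had the highest change of this group in BMP loss (0.22, adjusted p = 0.24), eIF2Balpha the lowest in BMP gain (-0.14, adjusted p = 0.76). The changes of eIF2Bgamma and eIF2Bepsilon lay between -0.11 and 0.11, and those of the brighter eIF2Bdelta probe set 153545_at between -0.10 and 0.02. The dimmer eIF2Bdelta set changed by -0.18 to 0.12.

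The eIF3 scaffold was represented by 13 subunit genes with 14 probe sets, apart from its second gene copies. None was called by limma in any comparison with wild type, and 3, 1, 4 and 1 had an unadjusted p under 0.05 in EGFR gain, EGFR loss, BMP gain and BMP loss. The median change was 0.08, 0.01, 0.02 and -0.05. In EGFR gain 6 of the 14 had arrays that did not overlap with wild type A, all of them higher, and 21.3% of all probe sets did not overlap there. These 6 were eIF3b, eIF3c, eIF3d1, eIF3e, eIF3g1 and the brighter probe set of eIF3h, with changes of 0.07 to 0.43. In BMP gain 8 did not overlap, 5 higher and 3 lower, beside 20.5% of all probe sets. In EGFR loss 1 did not overlap and in BMP loss 5 did not, beside 21.5% and 21.0% of all probe sets. Over all 76 members the counts without overlap were 22, 16, 21 and 22, and bright probe sets overlap less often in general, at 29.4%, 28.8%, 27.8% and 29.8% of those at or above the median.

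eIF3c, a core subunit that contacts start-selection factors, was the clearest case of a call decided by 1 array. It read 8.46, 8.46 and 8.45 in wild type A, 8.96, 8.81 and 8.89 in EGFR gain and 8.85, 8.84 and 8.98 in BMP gain. In EGFR loss it read 8.95, 9.06 and 8.04, in wild type B 7.71, 7.63 and 7.83 and in BMP loss 8.11, 8.09 and 8.10. Every perturbed array lay above its wild type except EGFR loss replicate 3, the array with the high 3' to 5' difference. With all arrays the changes were 0.43 ± 0.19, 0.22 ± 0.19, 0.43 ± 0.19 and 0.38 ± 0.19 (SE) in EGFR gain, EGFR loss, BMP gain and BMP loss, with adjusted p of 0.33, 0.61, 0.40 and 0.42. Without that array, an omission added after seeing the data for the comparisons that do not contain it, the changes were 0.43, 0.55, 0.43 and 0.38 with adjusted p of 0.0051, 0.0028, 0.0046 and 0.013. The shared estimate of spread ties the comparisons together, and the fit to all arrays remains the result reported.

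eIF3g1, a subunit with an RNA recognition motif, read 7.84, 7.87 and 7.92 in wild type A, 8.13, 8.21 and 8.10 in EGFR gain, 8.12, 8.29 and 8.06 in EGFR loss and 8.11, 8.06 and 8.14 in BMP gain. In wild type B it read 7.67, 7.65 and 7.65, and in BMP loss 7.85, 7.73 and 7.80. Every perturbed array lay above its wild type, and the changes of 0.27, 0.28, 0.23 and 0.14 had adjusted p of 0.070, 0.0505, 0.16 and 0.43. The 4 changes missed the threshold, and 3 of them share wild type A. Without EGFR loss replicate 3 the changes of eIF3g1 in EGFR gain and EGFR loss were called (adjusted p = 0.047 and 0.036). eIF3k, a peripheral subunit, changed by -0.28 ± 0.08 in BMP gain (adjusted p = 0.12), and eIF3m changed by -0.25 ± 0.06 in BMP loss (adjusted p = 0.060), where it read 8.55, 8.63 and 8.68 against 8.85, 8.90 and 8.85. It was called when EGFR loss replicate 3 was left out of the shared fit (adjusted p = 0.047). The core subunit eIF3a changed by -0.11 to 0.07, eIF3e by -0.05 to 0.09 and eIF3i by -0.15 to -0.07. The signs differed among subunits of the complex.

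**Figure D3:**
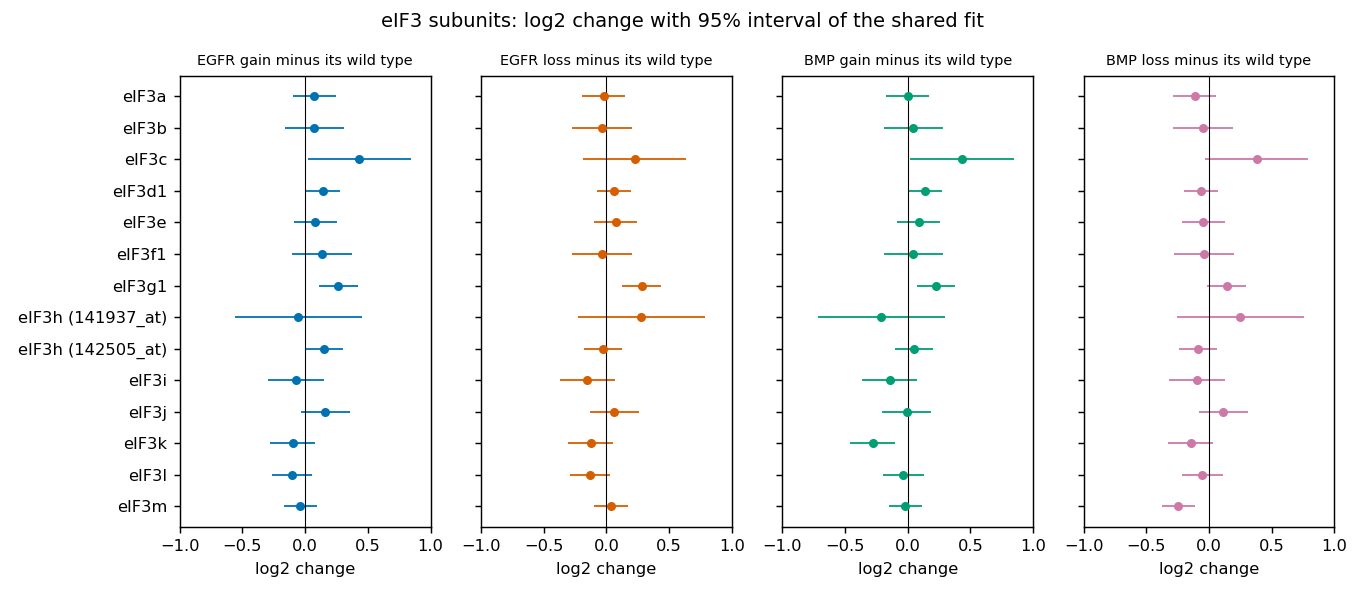
Log2 change with its 95% interval for the 14 probe sets of eIF3 subunits in each perturbation relative to its parallel wild type. Most intervals cross 0 and are narrower than 0.5 on either side, eIF3g1 lies to the right in all 4 panels, and eIF3c and the dimmer eIF3h probe set have the widest intervals.

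Start-selection and subunit-joining factors gave 2 calls, in eIF5B and eIF6, and each was made in 1 of the gene's probe sets. eIF5B, the GTPase of subunit joining, has 3 probe sets. The set 148111_r_at read 8.85, 9.06 and 8.78 in wild type A and 8.55, 8.52 and 8.43 in BMP gain, so every BMP gain array was lower, and it fell by 0.39 on the log2 scale (SE 0.09, adjusted p = 0.045). The sets 148110_i_at and 148112_at changed by 0.31 and -0.02 in BMP gain (adjusted p = 0.68 and 0.996), so the gene has no single direction there. In EGFR gain the 3 sets changed by 0.45, -0.20 and 0.12, in EGFR loss by 0.10, -0.17 and -0.09 and in BMP loss by -0.27, -0.16 and -0.15, none of them called. The call of eIF5B in BMP gain was lost in each fit that left out 1 of the 6 arrays compared. The suffixes _r_at and _i_at are Affymetrix marks for sets that did not meet every design rule or had fewer probes.

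eIF6, a factor that keeps the large subunit from joining too early, was lower in BMP loss in its brighter set 142234_at. It read 6.39, 6.53 and 7.02 in wild type B and 6.14, 5.97 and 5.93 in BMP loss, and fell by 0.63 (SE 0.15, adjusted p = 0.047). The groups did not overlap, but wild type B replicate 3 was well above its fellows, and of 7 fits that left out 1 array the call held only without wild type B replicate 1 (without EGFR loss replicate 3 the adjusted p was 0.0505). The dimmer set 141854_at changed by -0.29 (adjusted p = 0.81). In EGFR gain and BMP gain the brighter set changed by -0.42 and -0.49 with adjusted p of 0.20 and 0.15, and in EGFR loss by -0.06. The gene ytr overlaps eIF6 in the current annotation, and reads from overlapping genes were not separated here. eIF1, which guards start codon choice, changed by 0.20, 0.24, 0.11 and 0.08, with its lowest adjusted p at 0.10 in EGFR loss. eIF5, the GTPase activator of eIF2, changed by 0.02 to 0.08, and eIF2A by -0.09 to 0.23.

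The paralogs of eIF3 and eIF4 subunits were mostly dim and variable. eIF4G2, a paralog of the scaffold that is known for a role in male germ cells, was the exception in brightness. It read 7.44, 7.45 and 7.37 in wild type A and 6.96, 7.06 and 7.02 in BMP gain, and fell by 0.41 (SE 0.09, adjusted p = 0.028), with no overlap. In EGFR gain it read 7.10, 7.35 and 7.36 and in EGFR loss 7.03, 7.17 and 7.11, also below wild type A in every array, with changes of -0.15 and -0.32 and adjusted p of 0.53 and 0.079. In BMP loss the change was -0.14 (adjusted p = 0.58). The BMP gain call was lost in each fit that left out 1 of the 6 arrays compared. CG33111 and CG34355 overlap eIF4G2 in the current annotation.

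The dimmest members gave the largest and least certain differences. eIF4E4 changed by 1.39, 2.03, 1.22 and 0.92 in the 4 perturbations, with SE of 0.93 each. Its arrays in wild type A ran from -0.86 to 2.63, which covers 6 of the 9 perturbed arrays of round 1, and no change had an adjusted p under 0.29. eIF4E5 changed by -2.59 and eIF3d2 by -2.02 in EGFR gain, with adjusted p of 0.34 and 0.31, and both had wild type A arrays spread over 3 log2 units or more. The other large differences by the naming rule were eIF4H2 at 1.19 in EGFR gain and 0.83 in BMP loss, eIF3g2 at 0.92 and eIF3f2 at 0.73 in EGFR gain, eIF3f2 at 1.05, eIF4E7 at 0.88, eIF4E5 at -0.80 and eIF3d2 at -0.47 in EGFR loss, and eIF4E6 at -0.75 in BMP loss, none called. In BMP gain eIF3f2 changed by 0.86, eIF3d2 by -1.60 and the eIF4E7 set 144368_at by -0.77, also not called.

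eIF4E3, a cap-binding paralog required for spermatogenesis in flies, read 2.79, 2.91 and 0.19 in BMP gain against 0.14, 0.92 and 0.35 in wild type A. A pair of BMP gain arrays lay far above wild type and the third lay among them. With all arrays the change was 1.496 ± 0.57 (SE, adjusted p = 0.29), and without BMP gain replicate 3 it was 2.38 (adjusted p = 0.0045). In the other perturbations eIF4E3 changed by 0.26, 0.33 and -0.33.

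Cytoplasmic synthetases held 6 of the 12 calls against wild type, and these came from the probe sets of ValRS and LeuRS. Of 18 probe sets, 1 was lower in EGFR gain, 1 in EGFR loss, 2 in BMP gain and 2 in BMP loss, and none was higher. Of all probe sets 1.29%, 1.48%, 1.22% and 1.17% were called lower in these comparisons. In EGFR gain, EGFR loss, BMP gain and BMP loss 3, 7, 2 and 4 of the 18 had an unadjusted p under 0.05, or 16.7%, 38.9%, 11.1% and 22.2%. The shares were 13.7%, 16.7%, 11.3% and 13.4% of all probe sets. In the brighter part of the array they were 19.5%, 23.6%, 15.3% and 18.1%. The median change over the class was 0.09, 0.11, 0.04 and 0.02. The array medians of the class overlapped between each round 1 perturbation and wild type A, at 7.66 to 7.73 in wild type A, 7.61 to 7.67 in EGFR gain, 7.50 to 7.78 in EGFR loss and 7.50 to 7.71 in BMP gain, and they overlapped between wild type B (6.97 to 7.07) and BMP loss (7.05 to 7.16).

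ValRS, which charges tRNA with valine, was lower than wild type in all 4 perturbations and was called in 3. Its probe set 141603_at read 6.38, 6.20 and 6.18 in wild type A, 5.73, 5.69 and 6.00 in EGFR gain, 5.74, 5.80 and 6.04 in EGFR loss and 5.56, 5.50 and 5.51 in BMP gain. In round 2 it read 5.58, 5.46 and 5.40 in wild type B and 4.86, 4.95 and 5.05 in BMP loss. No perturbed array reached the wild type of its round, and BMP gain was the lowest group of round 1. ValRS fell by 0.44 with EGFR gain (SE 0.10, adjusted p = 0.037), by 0.73 in BMP gain (SE 0.10, adjusted p = 0.0015), which is 1.66-fold, and by 0.53 in BMP loss (SE 0.10, adjusted p = 0.015). In EGFR loss the change was -0.39 ± 0.10 with an adjusted p of 0.062, and without EGFR loss replicate 3 it was -0.48 and called (adjusted p = 0.032). Only the BMP gain call held in all 7 fits that left out 1 array, where EGFR loss replicate 3 was the array left out beside the 6 compared. The BMP loss call held in 4 of 7, being lost without wild type B replicate 1 or BMP loss replicate 1 or 2, and the EGFR gain call held only without EGFR gain replicate 3 or EGFR loss replicate 3. Opposite perturbations of BMP signalling thus gave values on the same side of their wild types, against separate wild type pools, and the difference of the 2 responses was -0.20 (adjusted p = 0.80). The strain, the driver and the pathway cannot be told apart in these values. Between perturbations ValRS differed by 0.28 in EGFR gain minus BMP gain and 0.33 in EGFR loss minus BMP gain, with adjusted p of 0.29 and 0.13.

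LeuRS, the leucine enzyme, gave the largest called change of any member, in 1 of its 2 probe sets. The set 151753_r_at read 8.12, 7.90 and 7.79 in wild type A and 6.01, 5.73 and 6.20 in EGFR loss. It read 7.28, 7.46 and 7.59 in EGFR gain and 7.18, 7.42 and 7.22 in BMP gain. In round 2 it read 8.47, 8.18 and 8.17 in wild type B and 7.56, 7.66 and 7.78 in BMP loss. All EGFR loss arrays lay below every other array, and those of EGFR gain and BMP gain lay between them and wild type A. The set fell by 1.95 in EGFR loss (SE 0.14, adjusted p = 5.6e-06), or 3.87-fold, by 0.66 in BMP gain (SE 0.14, adjusted p = 0.021) and by 0.60 in BMP loss (SE 0.14, adjusted p = 0.037). In EGFR gain the change was -0.49 ± 0.14 with an adjusted p of 0.086. The EGFR loss call held in all 6 fits that left out 1 array. The BMP gain call held in 3 of 7, being lost without wild type A replicate 1 or 2 or BMP gain replicate 1 or 3, and the BMP loss call was lost in each fit without 1 of the 6 arrays compared.

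The other LeuRS set, 151752_s_at, went its own way. It read 7.06, 6.87 and 6.82 in wild type A, 7.04, 7.21 and 7.35 in EGFR loss, 6.69, 6.67 and 6.53 in wild type B and 6.94, 7.13 and 7.08 in BMP loss. EGFR loss overlapped with wild type A, and BMP loss lay above wild type B in every array. Its changes were 0.06, 0.28, -0.14 and 0.42 in EGFR gain, EGFR loss, BMP gain and BMP loss, with adjusted p of 0.91, 0.28, 0.79 and 0.12. The fall in LeuRS was thus seen in 1 of the gene's 2 probe sets. A probe set reads hybridization to its own probes, and whether the stocks differ in the probed sequence, or the sets in the transcripts they read, was not tested. The values of 151753_r_at are therefore not a measure of LeuRS expression on their own. The suffix _s_at is Affymetrix's mark for probes shared by several transcripts. In EGFR loss, where the fall was largest, muscle markers had mean log2 values of 2.56 to 2.93, against 1.83 to 1.96 in wild type A. These are means over 13 probe sets of 8 of the 12 genes listed, and 2 of the 13 were called higher. Fat body markers had 3.76 to 4.96 against 2.78 to 3.34, with 2 of 6 called higher, and the part of either in the LeuRS value was not tested. Without EGFR loss replicate 3 the LeuRS change was -2.06 (adjusted p = 1.7e-05).

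**Figure D4:**
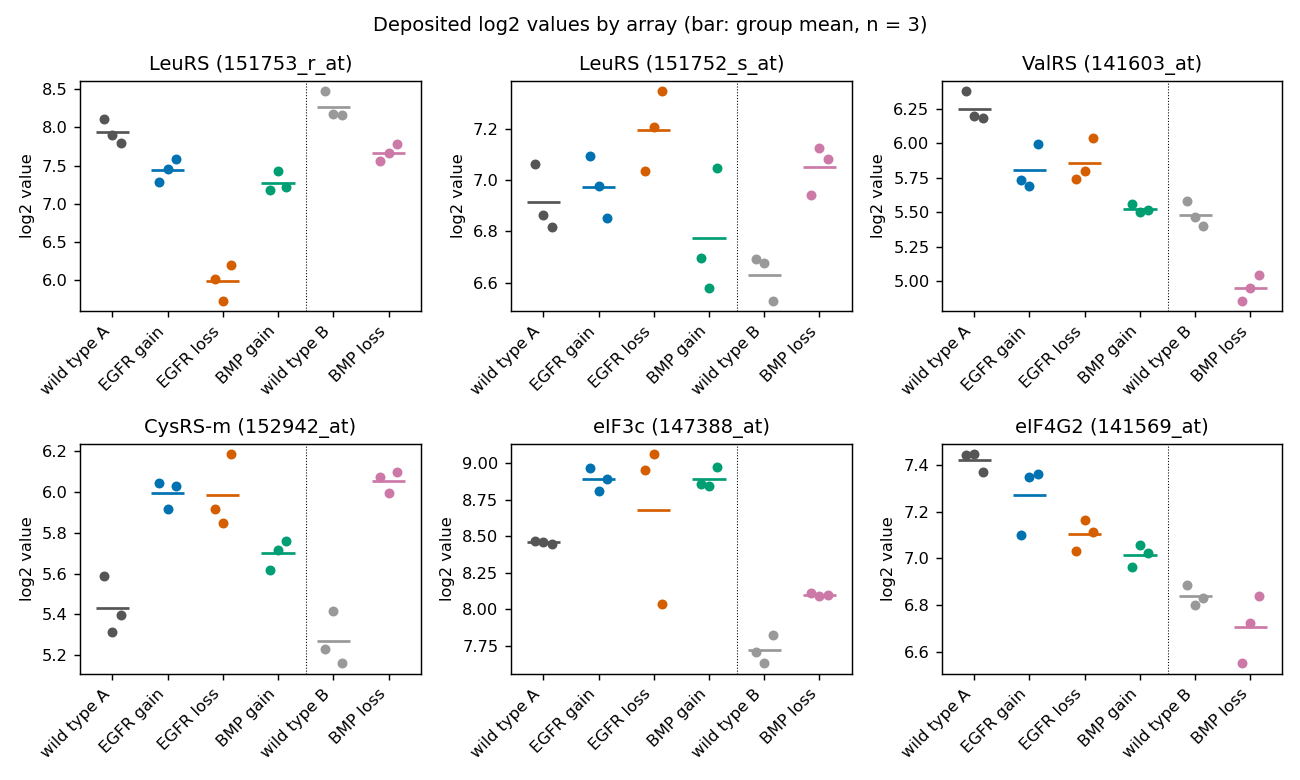
Deposited log2 values in each array for the 2 probe sets of LeuRS and for ValRS, CysRS-m, eIF3c and eIF4G2, with a bar at each group mean (n = 3) and a dotted line between the hybridization rounds; vertical scales differ between panels. The EGFR loss arrays of LeuRS 151753_r_at sit between 5.73 and 6.20, below all others, the second LeuRS set does not show this, and 1 EGFR loss array of eIF3c (8.04) lies apart from the other 2.

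None of the other cytoplasmic synthetase probe sets was called in a comparison with wild type. ThrRS and GlnRS came nearest in EGFR loss, with changes of 0.36 ± 0.10 and 0.30 ± 0.09 and adjusted p of 0.083 and 0.11. ThrRS read 8.07, 8.17 and 8.499 there against 7.83, 7.96 and 7.87, with no overlap. Both were called without EGFR loss replicate 1 (adjusted p = 0.037 for ThrRS and 0.036 for GlnRS). CysRS, the cysteine enzyme, changed by 0.35, 0.35, 0.17 and 0.39 with adjusted p of 0.29, 0.25, 0.78 and 0.25. The changes of AlaRS, ArgRS, AsnRS, GlyRS, HisRS, IleRS, LysRS and TrpRS lay between -0.18 and 0.22 in every comparison with wild type. The dimmer TyrRS set 141974_at had a change of 0.79 ± 0.50 in EGFR loss, and the brighter set 142649_at one of -0.04. The dimmer SerRS set changed by -0.33 to 0.21. Enzymes whose symbols fall outside the rule, alpha-PheRS, beta-PheRS and GluProRS, had no call in the 4 comparisons either, with changes of 0.02 to 0.25 for GluProRS.

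Mitochondrial synthetases gave 3 of the calls, all of CysRS-m. This enzyme loads cysteine onto the mitochondrial tRNA, and its probe set 152942_at read 5.59, 5.31 and 5.39 in wild type A, 6.04, 5.91 and 6.03 in EGFR gain, 5.92, 5.85 and 6.19 in EGFR loss and 5.62, 5.72 and 5.76 in BMP gain. In round 2 it read 5.23, 5.42 and 5.16 in wild type B and 6.07, 6.00 and 6.10 in BMP loss. Every perturbed array lay above its wild type. The rise of CysRS-m was 0.56 with EGFR gain (SE 0.10, adjusted p = 0.0096) and 0.55 with EGFR loss (SE 0.10, adjusted p = 0.011). It was 0.79 in BMP loss (SE 0.10, adjusted p = 0.0014), which is 1.72-fold. In BMP gain the change was 0.27 ± 0.10 (adjusted p = 0.31). The BMP loss call held in all 7 fits that left out 1 array, the EGFR gain call in 6 of 7 and the EGFR loss call in 5 of 6, and of these fits both of the latter calls were lost only without wild type A replicate 2 (adjusted p = 0.053 and 0.056). In limma fits to the compared arrays alone all 3 calls were lost. The adjusted p was then 0.15 in EGFR gain, 0.28 in EGFR loss and 0.071 in BMP loss. EGFR gain and EGFR loss, which oppose each other in design, differed by 0.01 with a 95% interval of -0.21 to 0.24. The gene CG13016 overlaps CysRS-m in the current annotation.

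The other 14 mitochondrial probe sets were not called in any comparison with wild type. ProRS-m changed by 0.44, 0.64, -0.22 and 0.55 with adjusted p of 0.45, 0.17, 0.84 and 0.31. PheRS-m changed by 0.25, 0.25, 0.23 and 0.15, with no overlap in any of the 4 and adjusted p of 0.22, 0.17, 0.30 and 0.52. MetRS-m had 1 set at -0.28 to -0.47 and another at -0.13 to 0.19, and GluRS-m changed by -0.47 in EGFR gain (adjusted p = 0.54). The class median was -0.08, 0.02, -0.05 and 0.00, and the array medians were 5.39 to 5.59 in wild type A, 5.28 to 5.42 in EGFR gain, 5.39 to 5.53 in EGFR loss and 5.50 to 5.51 in BMP gain. In round 2 they were 4.90 to 5.18 in wild type B and 4.85 to 5.03 in BMP loss, and each perturbation overlapped with its wild type.

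For 9 amino acids the members included both enzymes. In the cysteine pair all 8 changes were above 0, at 0.17 to 0.39 for CysRS and 0.27 to 0.79 for CysRS-m, and only the mitochondrial gene was called. In the valine pair ValRS changed by -0.39 to -0.73 while ValRS-m changed by -0.01 to -0.22 and was not called. In the leucine pair LeuRS-m changed by -0.22, 0.07, -0.05 and -0.28, with -0.22 the value in EGFR gain, and its value of 0.07 in EGFR loss stands beside -1.95 in LeuRS 151753_r_at. ArgRS and ArgRS-m lay between -0.08 and 0.13, TrpRS between -0.16 and 0.08 and TrpRS-m between -0.25 and 0.06. AsnRS changed by 0.03 to 0.20 and AsnRS-m by -0.27 to 0.02, IleRS by 0.06 to 0.21 and IleRS-m by 0.03 to 0.28. The brighter SerRS set changed by -0.05 to 0.12 and SerRS-m by -0.05 to 0.21, and TyrRS-m changed by -0.01 to 0.36. Whether the 2 members of a pair differ in their change was not tested.

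Direct comparisons between perturbations share the driver and the round, as far as the labels go. In EGFR gain minus EGFR loss 1 of 76 members was called by limma, where 2.10% of all probe sets were called. It was LeuRS 151753_r_at, higher in EGFR gain by 1.46 (SE 0.14, 95% interval 1.16 to 1.76, adjusted p = 9.7e-05). In EGFR loss minus BMP gain 1 member was called, beside 2.00% of all probe sets, and it was the same probe set, at -1.29 (SE 0.14, adjusted p = 0.00017). Both calls held in all 6 fits that left out 1 array, and both were lost in a fit to the 6 arrays of the comparison alone (adjusted p = 0.089 and 0.099). In EGFR gain minus BMP gain none was called, with 8 members at an unadjusted p under 0.05 and 1.27% of all probe sets called. Its largest differences were eIF4H2 at 1.58, eIF4E6 at 1.10, the eIF4E7 set 144368_at at 0.82, eIF4E5 at -2.23 and eIF4E3 at -1.24, all dim, and ProRS-m at 0.66 (adjusted p = 0.27).

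In EGFR gain minus EGFR loss the next largest differences were eIF4H2 at 1.49, eIF3g2 at 0.92, eIF4E5 at -1.79, eIF3d2 at -1.54, the other eIF4E7 set at -0.84 and the dimmer TyrRS set at -0.67, not called. In EGFR loss minus BMP gain they were eIF3d2 at 1.12, eIF4E7 at 1.04, eIF4E4 at 0.81, eIF4E3 at -1.16 and ProRS-m at 0.86 (adjusted p = 0.076). Without EGFR loss replicate 3 that of ProRS-m was 1.10 and called (adjusted p = 0.031). The response to BMP gain minus the response to BMP loss gave no called member by limma, with 6 at an unadjusted p under 0.05 and 0.430% of all probe sets called. CysRS-m came nearest, with a difference of responses of -0.52 ± 0.15 (adjusted p = 0.24), and LeuRS 151752_s_at followed at -0.56 ± 0.18 (adjusted p = 0.34). The largest differences of responses were those of the dim eIF3d2 (-2.15), eIF4E3 (1.83) and eIF4H2 (-1.22).

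Genes around the members gave few calls as well. Of 14 listed regulators of initiation, among them the 4E-binding protein Thor, the eIF4E partners cup and 4E-T and the eIF2 kinases Gcn2 and PEK, 11 were measured with 13 probe sets. None was called by limma in any comparison with wild type, and 2, 3, 2 and 0 had an unadjusted p under 0.05 in EGFR gain, EGFR loss, BMP gain and BMP loss. The median changes were -0.13, -0.16, -0.03 and 0.00. The transcription factor crc, the fly ATF4 that acts in the amino acid response, was higher in EGFR gain than in EGFR loss by 0.35 (SE 0.07, adjusted p = 0.028). None of 8 measured elongation and termination factors of 13 listed was called, with 3, 0, 2 and 0 at an unadjusted p under 0.05. Of 8 listed genes of the ATF4 and amino acid response 5 were measured, and none was called against wild type, with 2, 0, 0 and 1 at an unadjusted p under 0.05. None of the 3 multisynthetase scaffolds AIMP1, AIMP2 and AIMP3 was called, with 0, 1, 0 and 0 at an unadjusted p under 0.05.

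Of 18 listed genes of TOR and growth signalling 14 were measured with 16 probe sets, and foxo, a transcription factor held back by insulin signalling, was the 1 gene called. It was lower in EGFR loss than in wild type A by 0.93 (SE 0.22, adjusted p = 0.039), and the difference EGFR loss minus BMP gain was -0.98 (adjusted p = 0.038). Among 37 ribosomal protein genes 1 was called in each of EGFR gain, EGFR loss and BMP loss. Of all probe sets 2.81%, 3.17% and 2.29% were called there, so these counts are near the background. RpS18 was higher by 0.32 in EGFR gain and 0.29 in EGFR loss (adjusted p = 0.012 and 0.022), which share wild type A. RpS29 was higher by 0.42 in BMP loss (adjusted p = 0.011). None was called in BMP gain, with 1 at an unadjusted p under 0.05. The medians over these 37 were 0.03, 0.07, 0.00 and 0.02. Among 66 probe sets of mitochondrial ribosomal proteins mRpL47 was higher and mRpS29 lower in EGFR gain. In EGFR loss 4 were higher (mRpL14, mRpL21, mRpL48 and mRpS17), where 1.69% of all probe sets were called higher. In BMP gain mRpL47 was higher. None was called in BMP loss, where 7 had an unadjusted p under 0.05. The median of that list was 0.15 in EGFR loss and between -0.01 and 0.03 in the other perturbations. EGFR loss also had the most probe sets of this list at an unadjusted p under 0.05, 23 or 34.8%. The share was 16.7% of all probe sets and 23.6% of those in the brighter part of the array. Of the 66 changes there 53 were above 0 and 13 below. Arrays did not overlap with wild type A for 27 sets, or 40.9%, 26 of them higher. That share was 21.5% of all probe sets and 28.8% of those in the brighter part. Both gain perturbations had 9 sets at an unadjusted p under 0.05.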

How the data were processed

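Expression was measured on 18 Affymetrix arrays of 6 groups with 3 replicates each. Per the submitters' processing notes the authors used the affy package, and the deposited table holds log2 values of 14010 probe sets. The sources used here do not name the background correction or the summary. Array medians were alike within each round and differed between rounds, so the deposited log2 values appear to be normalized within rounds, and they were used as they stood.

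Gene names came from the platform's probe annotation, where 12442 had 1 gene, 327 several and 1197 none, with 44 controls left out. All 76 members matched the RefSeq table by gene number. A limma model (version 3.58.1, R 4.3.3) with a mean for each of the 6 groups was applied to 13966 probe sets and all 18 arrays, with 12 residual degrees of freedom, Benjamini-Hochberg adjustment over all of them and calls at an adjusted p under 0.05. The fit was tested on simulated data with 200 changes planted in probe sets of at least median signal. Of the 1.5-fold changes 52.2% to 68.7% were recovered, and of the 4-fold changes 95.5% to 98.5%. False calls were 19 of 180 in EGFR gain, 8 of 166 in EGFR loss, 13 of 172 in BMP gain and 7 of 182 in BMP loss. Named members were those called, the 4 highest and 4 lowest changes of each comparison, a fixed set of core factors and paired synthetases, and the brightest and dimmest. The members and lists were chosen with earlier results of these data known. Replicate numbers were not used as pairs: after subtraction of group means none of 21 same-number pairs correlated over 0.1. The highest correlation was 0.09, and this check cannot exclude a weak pairing. No sequence of a member was used here.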

Additional observations from a re-analysis of the deposited data

Results flagged for a closer look

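The probe set 151753_r_at of LeuRS differed between perturbations of round 1 by a test of the difference itself. It was higher in EGFR gain than in EGFR loss by 1.46 on the log2 scale (limma adjusted p = 9.7e-05), with arrays of 7.28, 7.46 and 7.59 against 6.01, 5.73 and 6.20. The difference EGFR loss minus BMP gain was -1.29 (limma adjusted p = 0.00017), with BMP gain arrays of 7.18, 7.42 and 7.22. All 3 EGFR loss arrays lay below all arrays of the other group in both comparisons. The second probe set of the gene, 151752_s_at, did not share this: it differed by -0.22 in EGFR gain minus EGFR loss and by 0.42 in EGFR loss minus BMP gain, neither of them called.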

How the results depend on the processing

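No member call changed direction under any alternative. The number of members called was small and moved with the fit. In EGFR gain, EGFR loss, BMP gain and BMP loss against wild type it was 2, 2, 4 and 4. Restricting the model to the compared arrays gave 0, 1, 1 and 0, and left 0 in both EGFR gain minus EGFR loss and EGFR loss minus BMP gain. Models within a round gave 1 in EGFR gain, 1 in BMP gain and 0 in BMP loss. An intensity trend with robust moderation gave 5 in EGFR gain and 8 in EGFR loss, array weights gave 4 in EGFR loss, and a filter on dim probe sets gave 4 in EGFR gain, 8 in EGFR loss and 4 in EGFR loss minus BMP gain. An adjusted p under 0.01 left 1 in each comparison with wild type. Leaving out 1 array at a time gave 0 to 4 in EGFR gain, 1 to 5 in EGFR loss, 1 to 5 in BMP gain, 1 to 5 in BMP loss, 1 to 3 in EGFR loss minus BMP gain, and 0 to 1 in EGFR gain minus BMP gain and in the difference of the BMP responses. The cause of these shifts was not tested. With the replicate number as a block, the counts against wild type were 1, 2, 4 and 2. Quantile normalization, median centring and 1 probe set per gene kept each count within 1.5 times.

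LeuRS 151753_r_at in EGFR loss and ValRS in BMP gain were called under all alternatives run, with highest adjusted p of 0.041 and 0.047. Members near the bottom of the scale have intervals too wide to bound a change, and the deposited table was used without detection calls.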
